A study of Mus musculus with 6 samples.

Results

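Poly(A)-binding proteins coat the adenine tail of messenger RNA. The cytoplasmic members (PABPC) connect the tail to the cap-binding complex and to the deadenylases that shorten it, the nuclear member PABPN1 acts while the tail is being made, and small PABP-interacting proteins raise (PAIP1) or lower (PAIP2 and PAIP2B) the translation that PABPC promotes. Male germ cells store many messages for later use, and mice carry intronless PABPC genes besides the ancestral Pabpc1. The family was taken by symbol from GENCODE M21 as 10 genes, of 55487 gene identifiers in the count table: the cytoplasmic genes Pabpc1, Pabpc2, Pabpc4, Pabpc6, Pabpc1l and Pabpc5, the nuclear gene Pabpn1, and the interactor genes Paip1, Paip2 and Paip2b. The family was chosen by the CPM of Pabpc2, which was much lower in dsfb than in control libraries, so the difference of Pabpc2 between the groups is given as a description with no test. The other 9 genes came in as family members and interactors, but with earlier results of these data known. They are read in the same comparison, and no count over them is used as support.

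Polyadenylated RNA from whole testes of mice at postnatal day 19 was sequenced in 6 libraries, 3 per group. The first group is labelled control, with no further genotype. The second carries the label dsfb. The series title gives its genotype as Hormad1&2SFB/SFB, and HORMAD1 and HORMAD2 are axis proteins of meiotic chromosomes. The labels do not say what the SFB allele is, nor the strain or the genotype of the controls, and they put the testes in different mice, so that each library stands for a separate animal.

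Counted reads numbered 23983373, 27707291 and 25684743 in the control libraries and 17306363, 15335130 and 15957354 in dsfb. The targeted genes were still transcribed: Hormad1 was at 446, 486 and 209 CPM (read counts scaled to a common depth, with library sizes corrected by TMM) in control and 217 to 246 CPM in dsfb, and Hormad2 at 42.9 to 60 and 25.1 to 28.7 CPM. Hormad2 was lower in dsfb (log2 fold change -0.96, edgeR adjusted p = 0.000757), and Hormad1 did not pass (-0.69, edgeR adjusted p = 0.0597). These levels do not check the genotype because the counts cover whole genes. Control replicate 3 stood apart from the other controls: its counts differed from theirs by 61.4 and 65 times what sampling alone gives (chi-square per degree of freedom), against 6.26 between replicates 1 and 2, and its summed level of 15 spermatid markers was 1621 CPM against 562 and 622. In dsfb all 14 tested spermatid markers fell, as did the 12 markers of pachytene spermatocytes (mid to late), and these 12 summed to 6981 to 9324 CPM in control and 135 to 144 CPM in dsfb. The 14 Sertoli cell markers summed to 2227 to 3093 CPM in control and 5282 to 5627 CPM in dsfb. Most of that sum was Clu, at a mean of 1812 CPM in control and 3599 CPM in dsfb. Of the 14 genes 13 rose and Trf did not pass, with a median log2 fold change of 1.0. In whole testes, fewer cells of a type and less RNA per cell cannot be told apart, and the part of cell composition in the differences below was not tested.

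The 10 genes differ in structure. Pabpc1 (ENSMUSG00000022283, chromosome 15, 36595661 to 36609668, minus strand, GRCm38) and Pabpc4 (ENSMUSG00000011257, chromosome 4, 123262351 to 123298925, plus strand) each have 15 exons in the longest coding transcript. Pabpc2 (ENSMUSG00000051732, chromosome 18, 39773497 to 39776082, plus strand) and Pabpc6 (ENSMUSG00000046173, chromosome 17, 9666495 to 9669717, minus strand) have 1 exon each. The coding sequence of Pabpc2 was 83.2% identical to that of Pabpc1 over 1881 aligned bases, that of Pabpc6 83.4% identical to Pabpc1, and Pabpc2 and Pabpc6 were 76.8% identical to each other. Pabpc4, Pabpc1l and Pabpc5 were 73.1%, 69.3% and 68.4% identical to Pabpc1, so the intronless autosomal pair was closer to Pabpc1 than to each other. No exact stretch of 50 bases in the longest coding transcript of any of the 10 genes recurred in a transcript of another. An exact match of that length or longer to such a transcript thus belongs to 1 member at most. Parts found only in other transcripts were not compared with each other.

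Their leaders differ as well. The Pabpc1 message is known for an adenine-rich stretch in its 5′ untranslated region through which PABPC1 protein restrains its own translation. In the longest coding transcript the 5′ untranslated region of Pabpc1 held an uninterrupted run of 8 adenines and that of Pabpc4 a run of 10, lengths reached by 2.13% and 1.05% of 17769 coding genes with at least 50 bases of leader. In Pabpc2 and Pabpc6 the longest runs were 2 and 1, with 9.1% and 7.2% adenine over the leader against a median of 19.6% over those genes. The whole leaders of Pabpc1 and Pabpc4 held 20.6% and 17.9% adenine, near that median. They were 467 and 704 bases long, against 187 and 97 in Pabpc2 and Pabpc6 and a median of 192. The shares of genes with such runs were not matched for leader length. Read from the annotation alone, the intronless pair thus lacks the long adenine runs of the multi-exon Pabpc1 and Pabpc4.

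RefSeq promoter windows (GRCm38.p6) were found for 5 of the 10 genes. Those of the 3 genes that rose in dsfb are shown, a choice made by their values in this same comparison. In each window 250 bases before the start were searched on both strands for 5 motifs. These were the CCAAT box, spelled out by its name, the core promoter element TATAAA, the GC-rich element GGGCGG bound by Sp1, the cAMP response element TGACGTCA, and the adenine run AAAAAAAA, whose matches may overlap each other. None of these motifs contains another. The Paip2b window (chr6:83831742-83831991, minus strand) lies before all 5 GENCODE transcripts of the gene. Those of Pabpn1 (chr14:54893893-54894142, plus strand) and Pabpc4 (chr4:123282661-123282824, plus strand) lie inside the annotated genes, because 1 of 9 and 1 of 8 transcripts start further upstream, and neither printed stretch holds an exon base of its gene. For Pabpc4 printing ends at the first GENCODE transcript start in the window, and motifs were counted over the full 250 bases. Capitals mark CCAAT in either orientation in the first and second sequence and TATAAA in the last.
Paip2b: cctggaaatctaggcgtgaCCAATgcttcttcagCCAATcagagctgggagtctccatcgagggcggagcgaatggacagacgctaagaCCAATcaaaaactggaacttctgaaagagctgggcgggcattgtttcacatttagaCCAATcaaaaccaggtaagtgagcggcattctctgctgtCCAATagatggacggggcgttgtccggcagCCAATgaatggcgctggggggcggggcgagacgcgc
Pabpn1: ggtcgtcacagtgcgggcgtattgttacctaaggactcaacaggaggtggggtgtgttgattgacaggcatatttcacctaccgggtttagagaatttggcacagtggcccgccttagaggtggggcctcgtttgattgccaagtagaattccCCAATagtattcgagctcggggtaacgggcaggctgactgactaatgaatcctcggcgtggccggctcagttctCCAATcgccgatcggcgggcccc
Pabpc4: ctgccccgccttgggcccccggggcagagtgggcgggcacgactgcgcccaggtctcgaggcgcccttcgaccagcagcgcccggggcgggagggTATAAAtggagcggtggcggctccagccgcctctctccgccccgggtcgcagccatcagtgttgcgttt
The Paip2b window held 6 CCAAT matches, all on the strand of the gene as printed, a number reached by 0.0578% of 32851 RefSeq windows of the same length. Pabpn1 held 2 (at least 2 in 10.1% of windows, at least 1 in 33.8%) and Pabpc4 none. The TATAAA match of Pabpc4 is a motif found in 12.4% of windows. Paip2b and Pabpc4 each held 3 GC box matches (at least 3 in 8.47% of windows) and Pabpn1 none. No window of the 3 held TGACGTCA, which occurred in 1.55% of all windows. The adenine run had 8 overlapping matches in the Pabpc4 window, all beyond the printed end, and none in the other two, with at least 1 in 7.31% and at least 6 in 2.67% of windows. Those of Pabpc4 thus lie past an annotated transcript start, and whether they include the adenine run of its leader was not tested. The 3 genes thus had none of the 5 motifs in common, and a match is a description of letters, not a site in use. Windows of Pabpc1l and Paip1, which did not pass the test, are not printed. Pabpc1l held 1 CCAAT match and none of the other motifs. The windows of Paip1 held 1 and 4 GC box matches and none of the other motifs.

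Among the cytoplasmic genes the abundant ones went down. Pabpc1 fell 3.93-fold and Pabpc6 89.9-fold, Pabpc4 rose 2.2-fold, and Pabpc2 was nearly gone from dsfb. Pabpc2, which encodes the PABPC of meiotic and postmeiotic male germ cells, stood at 644, 737 and 862 CPM in the control libraries (replicates 1 to 3) and at 0.203, 0.115 and 0.216 CPM in dsfb. Those levels rest on 50310 reads in control and 10 in dsfb. The ratio of these pooled reads, scaled for library size, was 4162, with a 95% counting interval of 2263 to 8679.8 that covers counting error only and not the spread between animals. These are the values for which the family was chosen.

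**Figure D1:**
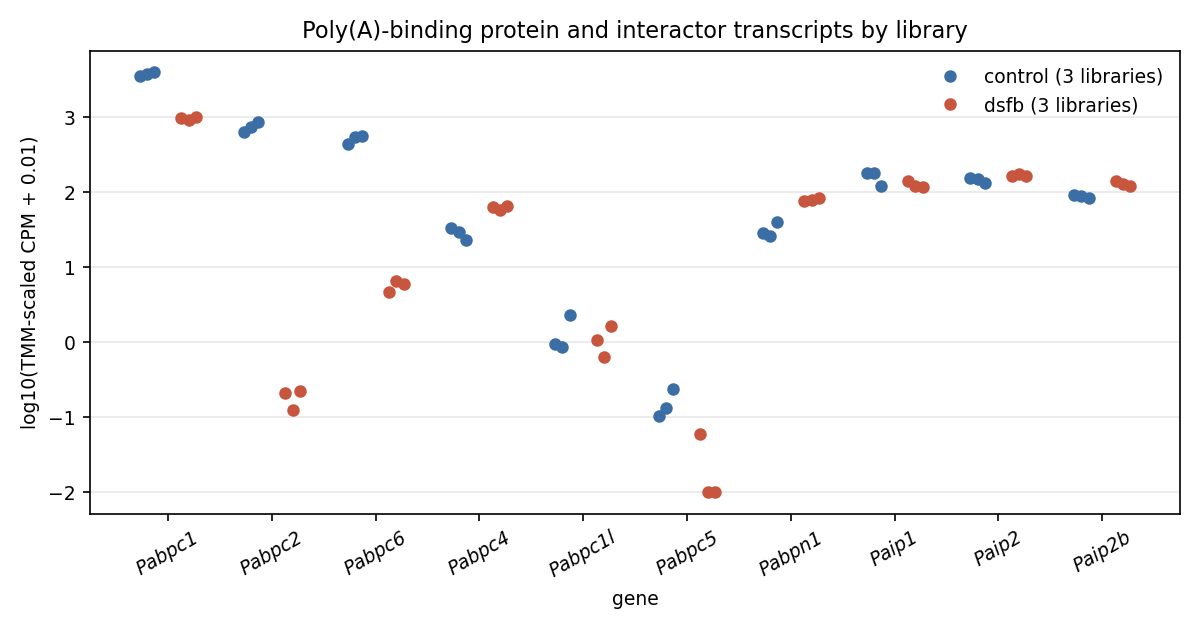
Expression of the 10 genes by library: the vertical axis is log10 of TMM-scaled CPM plus 0.01, and each point is one of 3 control or 3 dsfb libraries. Pabpc2 goes from 644 to 862 CPM in control to 0.115 to 0.216 CPM in dsfb, and Pabpc4, Pabpn1 and Paip2b are higher in each dsfb library than in any control library.

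Pabpc6, the other intronless autosomal PABPC gene, was at 439.6, 540.5 and 564 CPM in control and at 4.67, 6.6 and 5.94 CPM in dsfb. Its groups did not overlap, and its log2 fold change was -6.49 (SE 0.18, n = 3 per group, edgeR quasi-likelihood test, adjusted p = 2.04e-07). Unlike Pabpc2, Pabpc6 kept a clear count in dsfb, with 92, 115 and 110 reads in the 3 libraries. Pabpc1, the general PABPC of somatic and germ cells, was at 3515, 3712 and 4023 CPM in control and at 962, 905 and 996 CPM in dsfb. The 2 groups were far apart compared with the spread within each (3749.8 ± 256 and 955 ± 45.8 CPM, SD), and the log2 fold change was -1.97 (SE 0.11, edgeR adjusted p = 5.69e-06). In all 3 genes control replicate 3, the library with the most spermatid marker RNA, was the highest control.

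Pabpc4, an inducible PABPC known from activated T cells, ran the other way. It was at 33.2, 29.4 and 23.3 CPM in control and at 64.4, 58.4 and 65.9 CPM in dsfb (log2 fold change 1.13, SE 0.14, edgeR adjusted p = 0.000312). Every dsfb library lay above every control, and control replicate 3 was the lowest of all 6. Of the windows of 50 bases in the Pabpc4 message 75.2% recur exactly in 13 other annotated genes, chiefly Gm10110 with 70.9%, and neither read length nor the handling of reads with several matches was stated. The 12 of these in the count table summed to 132 reads in control and 178 in dsfb. Adding them to Pabpc4, a check chosen after the data were seen, gave a log2 fold change of 1.11 (SE 0.14, edgeR adjusted p = 0.000279). Pabpc1 shared 20.7% of its windows with 3 pseudogenes, and its log2 fold change with them added was -1.97.

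The last 2 cytoplasmic genes were rare. Pabpc1l, the PABPC of oocytes and early embryos, was at 0.931, 0.867 and 2.27 CPM in control and at 1.07, 0.631 and 1.62 CPM in dsfb. The groups overlapped, and the difference was within the spread between animals (log2 fold change -0.29, SE 0.50, edgeR adjusted p = 0.634). Its sign turned without control replicate 3 (0.27) or with library size as the only scaling (0.12). X-linked Pabpc5 had 2, 3 and 5 reads in the control libraries and 1, 0 and 0 in dsfb. It did not pass the filter on low counts and was not tested. The ratio of control to dsfb reads, scaled for library size, was 8.27 with a 95% counting interval of 1.18 to 359, so the size of any difference was not resolved at this depth. By comparison the median log2 fold change of 766 tested X-linked genes was 1.03.

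The nuclear gene rose. Pabpn1, whose protein controls tail length during polyadenylation, was at 28.3, 26.4 and 40.5 CPM in control and at 75.3, 78 and 83.4 CPM in dsfb (log2 fold change 1.31, SE 0.17, edgeR adjusted p = 0.000317). All dsfb libraries were above all controls. Here control replicate 3 was the highest control, the reverse of its place for Pabpc4. Pabpn1 shares 651 exonic bases with the gene Gm20521 on the same strand, which is listed at 0 in all 6 libraries, and how reads of the shared bases were assigned was not stated.

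Of the interactor genes, Paip2b rose and the other two did not pass the test. Paip2b, an inhibitor of PABPC, was at 90.5, 88.6 and 83.8 CPM in control and at 140.4, 128 and 122 CPM in dsfb (log2 fold change 0.57, SE 0.09, edgeR adjusted p = 0.000764). The 2 groups did not overlap, and the fold was 1.49. Paip2, the related inhibitor known for a role in late spermatids, was at 154, 149.7 and 131 CPM in control and at 163, 173 and 164 CPM in dsfb. Its groups did not overlap either, but the difference did not pass (log2 fold change 0.20, SE 0.09, edgeR adjusted p = 0.0769). It passed with library size as the only scaling (0.60, edgeR adjusted p = 0.00125) and with upper-quartile scaling (0.48, edgeR adjusted p = 0.00246). Paip1, the stimulator, was at 179, 182 and 121 CPM in control and at 139.6, 122 and 116 CPM in dsfb, with overlapping groups and a log2 fold change of -0.35 (SE 0.17, edgeR adjusted p = 0.0935). Control replicate 3 lay within the dsfb range of Paip1. Without it the log2 fold change was -0.55 (edgeR adjusted p = 5.26e-06), while with library size as the only scaling it was 0.04 (edgeR adjusted p = 0.854).

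Of the 9 genes other than Pabpc2, 8 were tested, of which 3 rose, 2 fell and 3 did not pass. Over all 19826 tested genes 30.7% rose and 36.2% fell, so that 66.9% passed, and 74.7% had groups that did not overlap. With the family chosen in this same comparison, nothing is read from its count. Scaling matters for small differences: with library size only the median over all genes moved up by 0.394 on the log2 scale, and 60.9% of calls were higher, against 45.9% with TMM. Upper-quartile scaling moved it by 0.278, with 57.2% of calls higher. The falls of Pabpc1 and Pabpc6 and the rises of Pabpc4, Pabpn1 and Paip2b held their direction and passed in each of 14 alternative fits.

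**Figure D2:**
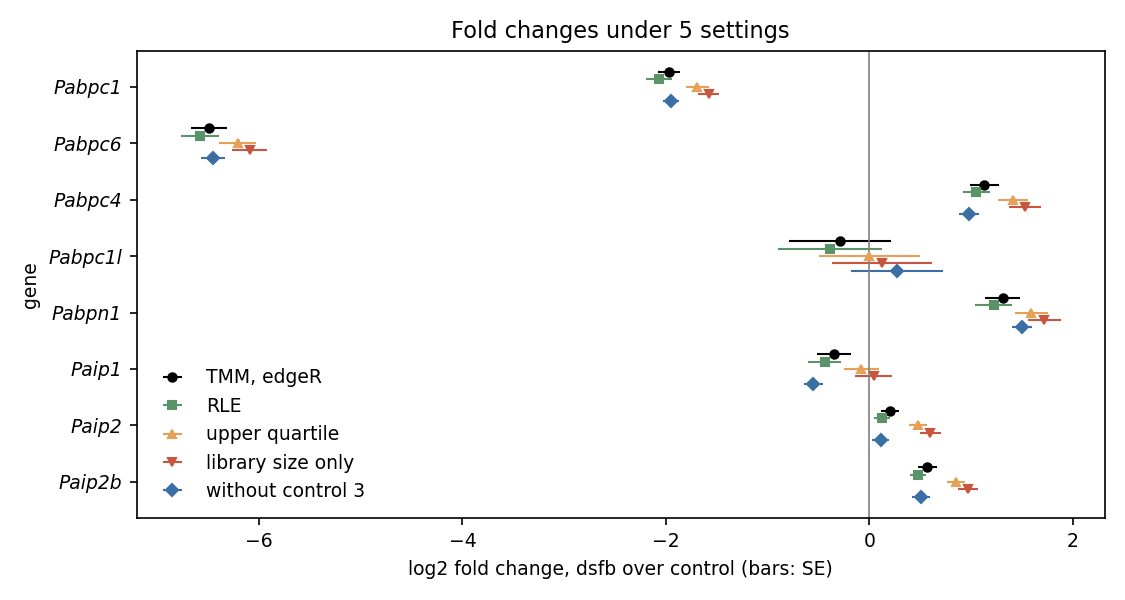
Log2 fold change of dsfb over control (horizontal axis, bars are SE) for the 8 tested genes other than Pabpc2 under 5 settings. Pabpc1 (-1.97) and Pabpc6 (-6.49) stay below 0 and Pabpc4, Pabpn1 and Paip2b above 0 in every setting shown, whereas Pabpc1l and Paip1 cross 0.

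To compare levels between genes, CPM were divided by the length of each gene's merged exons in kb. In control testes the order was Pabpc1 (573 ± 39.2 CPM per kb, SD, n = 3), Pabpc2 (289 ± 42.3), Pabpc6 (159.7 ± 20.5), Paip1 (46.5 ± 10), Paip2 (40.9 ± 3.49), Paip2b (13.8 ± 0.547), Pabpn1 (10.5 ± 2.51), Pabpc4 (7.11 ± 1.24), Pabpc1l (0.498 ± 0.291) and Pabpc5 (0.0615 ± 0.0299). Neighbours in that order had separate libraries except Paip1 with Paip2 and Paip2b with Pabpn1, and the order of Paip1 and Paip2 turns when the longest transcript is taken as the length. In dsfb testes Pabpc1 was still first (146 ± 7.0 CPM per kb). Paip2 (47.1 ± 1.65), Paip1 (36.4 ± 3.52), Pabpn1 (26 ± 1.36), Paip2b (20.6 ± 1.46) and Pabpc4 (15.6 ± 0.985) followed, and Pabpc6 (1.78 ± 0.304), Pabpc1l (0.406 ± 0.182), Pabpc2 (0.0688 ± 0.0213) and Pabpc5 (0.00696 ± 0.012) came last. Pabpc2 thus moved from the second to the ninth place. The place of Pabpc4 went from the eighth to the sixth as Pabpc2 and Pabpc6 dropped below it, and it passed none of the other genes.

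The make-up of the cytoplasmic PABPC messages changed with it. Pabpc2 supplied 26.7%, 27.7% and 29.5% of the summed CPM per kb of the 6 cytoplasmic genes in the control libraries and 0.0476%, 0.0286% and 0.0488% in dsfb. Pabpc6 supplied 15.5 ± 0.835% and 1.09 ± 0.22% (SD). Pabpc1 made up 55.8 ± 1.7% of the sum in control and 89.1 ± 0.11% in dsfb, although its own level was lower there. Pabpc4 went from 0.703 ± 0.187% to 9.53 ± 0.173%, although its own level rose only 2.2-fold, because the sum, which contains Pabpc2, was lower in dsfb. These shares depend on the length assumed, because the merged exons of Pabpc1 (6540 bases) are longer than its longest transcript (2916 bases): with the longest transcript the control share of Pabpc2 was 16.5%.

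**Figure D3:**
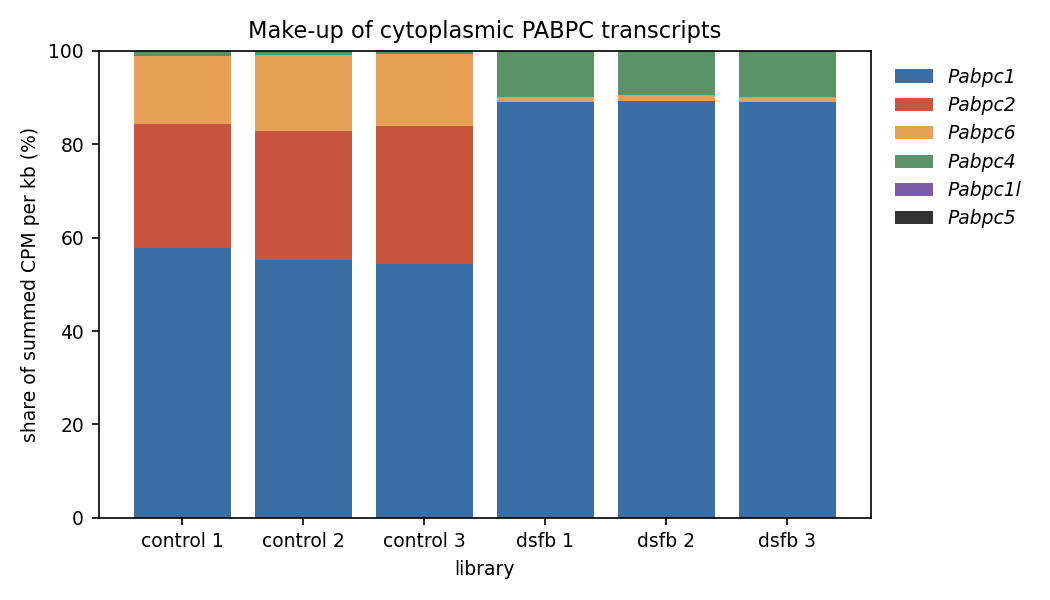
Share of each gene in the summed CPM per kb of merged exons of the 6 cytoplasmic PABPC genes (vertical axis, percent) in each library. Pabpc2 and Pabpc6 together fill most of what Pabpc1 leaves in control, and in dsfb Pabpc1 takes 89.1% and Pabpc4 9.53% of the sum.

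The summed level of the 6 genes was 932, 1028 and 1130.4 CPM per kb in control and 165, 155 and 171 CPM per kb in dsfb, 6.29 times as high in control (4.99 times by longest transcript). The summed level of Paip1, Paip2 and Paip2b differed little with TMM scaling, at 101 ± 14 and 104 ± 4.59 CPM per kb. Both sums, and so the 6.29, rest on that scaling. Without TMM correction mean CPM in control and dsfb were 140.3 and 144 for Paip1, 126 and 191 for Paip2, and 76.3 and 149 for Paip2b. Percentages of the PABPC sum are taken within each library and do not depend on scaling. The 3 interactor messages were at 11.8%, 10.6% and 7.52% of it in the control libraries and at 65.7%, 67.3% and 58% in dsfb. For the inhibitors Paip2 and Paip2b alone the values were 5.37 ± 0.886% and 41.4 ± 3.1%. By longest transcript the last values were 6.61 ± 1.03% and 39.9 ± 3.02%. Like the shares, these ratios contain Pabpc2 and describe the libraries with no test, and they are levels of RNA, not of protein.

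The genes most like Pabpc2 over the 6 libraries were Slco6c1, Cmtm2b, Fbp1, Tcp10c and Prdx6b. Likeness was the root mean square difference of log2 CPM (with a prior count of 2), each gene centred on its own mean, among 14283 named genes whose mean reached 1 CPM. It was 0.283, 0.288, 0.322, 0.327 and 0.375 for these 5. Fbp1, which encodes the gluconeogenic enzyme fructose-1,6-bisphosphatase, was at 375, 466 and 632 CPM in control and had 5 reads in dsfb. Slco6c1, a testis organic anion transporter, had none in dsfb, and Cmtm2b had 1. Pabpc6 was 226th in this order with a difference of 2.49, and Pabpc1 1714th with 4.72. With 2 groups the measure mostly reflects the size of the difference between them. The prior count limits that size where dsfb reads are few or absent, so the order among such genes depends on it.

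Around the family, genes of the messenger RNA tail moved in both directions, and the fold changes given for single listed genes all passed, with edgeR adjusted p of 0.00149 or less except where stated. The lists overlap: Tent2, Pan2, Pan3, Tob1, Tob2 and Ddx6 are each counted again in another list. In the list of enzymes that add nucleotides to RNA ends, 7 of 14 tested genes fell and 3 rose (50% and 21.4%, against 36.2% and 30.7% of all tested genes), with a median log2 fold change of -0.30, against 0.02 over all tested genes. With library size as the only scaling 5 fell and 4 rose, and the median was 0.09. Over all 19826 tested genes that scaling gave 5732 falls and 8936 rises, and upper-quartile scaling 6126 and 8187. List counts under these scalings, here and below, are to be read beside those numbers. Papolb, the testis poly(A) polymerase that extends tails in the cytoplasm of spermatids, fell from 553 ± 70.5 to 5.04 ± 0.758 CPM (109.7-fold, edgeR adjusted p = 1.88e-07). It too has a single exon. Tent5c and Tent5b, noncanonical poly(A) polymerases, fell 7.47-fold and 15.4-fold, and Tent4a rose 1.71-fold. The other single-exon genes tested in these lists, named after their values were seen, were Cstf2t, which fell 1.67-fold, and X-linked Gspt2, which rose 1.87-fold. Without dsfb replicate 3 only 1 gene of the list of tail-adding enzymes rose.

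**Figure D4:**
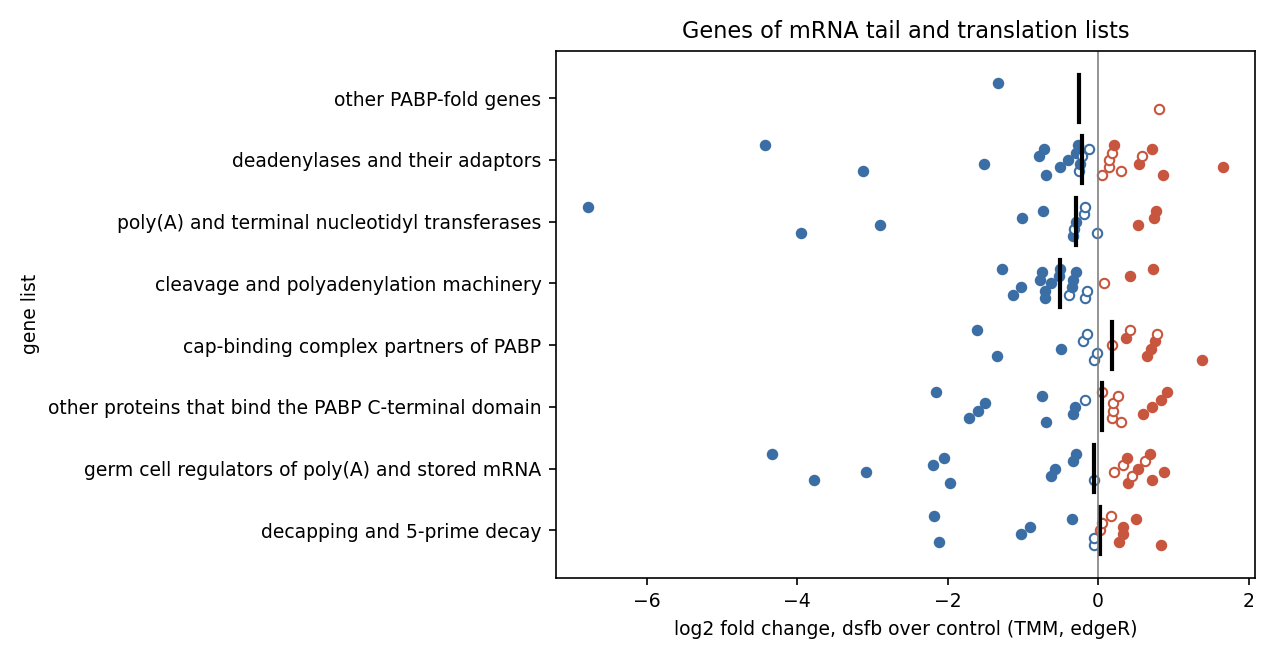
Log2 fold change of dsfb over control (horizontal axis) for the tested genes of 8 lists. Filled points passed at an adjusted p of 0.05, red lies above and blue below 0, and the black line is the list median, from -0.51 for cleavage and polyadenylation to 0.19 for the cap-binding partners. The point farthest to the left is Papolb (-6.78).

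In the list of cleavage and polyadenylation factors, which cut the nascent transcript and recruit the polymerase, 13 of 19 tested genes fell and 2 rose (68.4% and 10.5%, against 36.2% and 30.7% of all tested genes; median -0.51). Cstf1 fell 2.43-fold, Pcf11, which links cleavage to termination, 2.05-fold and Wdr33, the subunit that reads the polyadenylation signal, 1.62-fold. X-linked Cstf2 rose 1.65-fold and was 1 of the 2 rises. Without any 1 of the dsfb libraries 1 gene of this list rose. With library size as the only scaling 6 fell and 4 rose, beside 5732 falls and 8936 rises among all 19826 tested genes.

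Of 25 tested deadenylases and their adaptors 11 fell and 5 rose (44% and 20%, against 36.2% and 30.7% of all tested genes; median -0.21). With library size as the only scaling the list had 5 falls and 11 rises, and with upper-quartile scaling 6 and 11. The split over all 19826 tested genes turned too, to 5732 falls and 8936 rises and to 6126 and 8187. Btg4, an adaptor of the CCR4-NOT deadenylase known from meiosis, fell from 12.1 ± 3.05 to 0.556 ± 0.221 CPM (21.5-fold), Angel1 8.7-fold and Cnot4 2.84-fold, and Cnot1, the scaffold of CCR4-NOT, fell 1.73-fold. Without dsfb replicate 1 or 2 the list had 3 rises.

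Among partners of PABPC in the cap-binding complex 5 of 15 rose, a share of 33.3% near the 30.7% of all tested genes, and 3 fell (20%, against 36.2%; median 0.19). With library size only 10 rose and 2 fell, beside 8936 rises and 5732 falls among all 19826 tested genes. The scaffold genes moved apart: Eif4g1 rose from 303 ± 16.6 to 476 ± 6.79 CPM (1.57-fold), and Eif4g3, a scaffold needed for male meiosis, fell from 658 ± 105 to 216 ± 27.5 CPM (3.05-fold). Eif4e2, a cap-binding protein that represses translation, fell 2.55-fold, and Eif4ebp1, an inhibitor of cap binding, rose 2.6-fold. Of 19 tested genes for further PABPC-binding and termination factors 8 fell and 4 rose (42.1% and 21.1%, against 36.2% and 30.7% of all tested genes; median 0.05), or 6 and 10 with library size only. Larp1b fell 4.44-fold, the ubiquitin ligase gene Mkrn1 3-fold and Larp1, a repressor of ribosomal protein messages, 2.83-fold, whereas Nfx1 rose 1.78-fold.

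Of 21 tested germ cell regulators of tails and stored messages 10 fell and 6 rose (47.6% and 28.6%, against 36.2% and 30.7% of all tested genes; median -0.05), or 7 and 11 with library size only. Over all 19826 tested genes that scaling gave 5732 falls and 8936 rises. Of the genes for message-packaging proteins, Ybx3 fell from 1709 ± 371 to 84.2 ± 5.35 CPM (20.3-fold) and Ybx2, its germ cell relative, from 1775 ± 446 to 208 ± 16.5 CPM (8.54-fold). Ddx25, a helicase of spermatid message storage, fell 13.6-fold and Boll, a relative of Dazl, 4.59-fold. In the list of decapping and decay genes 5 of 15 rose and 5 fell, each 33.3% and near the shares of all tested genes (30.7% and 36.2%; median 0.02), with 10 rises and 4 falls by library size only. Upf3a fell 4.54-fold, Dcp1b 4.31-fold, Edc4 2.03-fold and Upf1 1.88-fold. The rises of this list numbered 2 or 3 without control replicate 1 or any 1 of the dsfb libraries.

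Of the remaining poly(A)-binding genes listed, Zc3h14, a zinc finger protein that binds nuclear tails, fell from 613 ± 17.2 to 244 ± 9.79 CPM (2.51-fold, edgeR adjusted p = 8.42e-06). Pabpc4l was at 1.05 ± 0.482 and 1.83 ± 0.111 CPM and did not pass (edgeR adjusted p = 0.0828). It passed as higher without control replicate 1 and with library-size-only or upper-quartile scaling. Cnot1, Tent4a, Cstf2, Pcf11, Mkrn1, Upf1 and Zc3h14 have exons that overlap an antisense gene. Their values are uncertain, because no source used here states whether counting kept to one strand.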

How the data were processed

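Polyadenylated RNA of whole testes was sequenced in 6 libraries, 3 control and 3 dsfb, from libraries made with the NEBNext Ultra kit per the labels' protocols. The authors deposited a table of raw read counts per gene. The submitters' processing notes name STAR 2.6.0 and mm10. Which tool counted the reads, on which annotation and with which strand option, no source used here states. Of 55487 gene identifiers 55227 are in GENCODE M21 (GRCm38), which gave symbols, positions and lengths, and 260 are not. Of 232 symbols listed for members, pathways and markers 230 were matched, 3 of them by a synonym.

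Counts were tested with the quasi-likelihood test of edgeR 4.0.16 in R 4.3.3, after filterByExpr by group and TMM scaling, with Benjamini-Hochberg adjustment over all 19826 tested genes and a threshold of 0.05. SE of a log2 fold change was taken from the F statistic. Alternatives were RLE, upper-quartile and library-size scaling, 2 other filters, DESeq2 1.42.0, a replicate block, leaving out each library, and, added after the data were seen, sums with genes that share 50-base windows. The members and lists were chosen with earlier results of these data known. Named genes were the members, up to 4 genes per list with the smallest p, and the 5 genes most like Pabpc2. On simulated data of 18858 genes the fit recovered 4 of 67 altered genes at a fold of 1.5, 21 of 67 at 2 and 53 of 66 at 4, with 7 calls among 18658 unaltered genes. Only 200 genes were altered in the simulation, whereas 66.9% of tested genes passed in the data. The adjustment is stricter with so few altered genes, so these rates do not give the power of this comparison. Total counts ranged from 15335130 to 27707291 per library. Counting intervals are exact, at 95%.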

Additional observations from a re-analysis of the deposited data

How the results depend on the processing

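The falls of Pabpc1 and Pabpc6 and the rises of Pabpc4, Pabpn1 and Paip2b kept their direction and passed in all 14 alternatives, with log2 fold changes of -2.07 to -1.58, -6.64 to -6.09, 0.98 to 1.53, 1.19 to 1.72 and 0.48 to 0.97. Over 8 genes and 14 alternatives, 103 of 112 recomputed values kept direction and side of the threshold, 6 newly passed and 3 changed sign. The changes of sign were Pabpc1l with library size only (0.12) and without control replicate 3 (0.27; range over left-out libraries -0.65 to 0.27), and Paip1 with library size only (0.04). The cause was not tested. Paip1 passed as lower with RLE scaling (-0.44, edgeR adjusted p = 0.0408), with DESeq2 (-0.44, adjusted p = 0.0196) and without control replicate 3. Members that rose numbered 3 or 4 and members that fell 2 or 3. Over all genes 4940 to 6596 rose and 6889 to 7621 fell when 1 library was left out.

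The control share of Pabpc2 in the PABPC sum, 28% by merged exons, was 16.5% by longest transcript, 15% by longest coding sequence and 14.8% of reads with no length correction, where the divisor differs by construction. In dsfb the values were 0.0417%, 0.0195%, 0.0175% and 0.0172%. Leaving out 1 library gave 27.2% to 28.6% and 0.0381% to 0.0482%.

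Same-numbered control and dsfb libraries had deviations correlated at 0.0709, 0.0607 and 0.116, so the numbers were not taken as pairs, although each library correlated best with its own number. With the replicate block 6228 genes rose and 7203 fell, and Paip1 passed (-0.33, edgeR adjusted p = 0.0345). Depth left the size of any Pabpc5 difference unresolved (10 reads in control, 1 in dsfb).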
